A study of Mus musculus with 4 samples.

Results

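The 10 genes described here encode cadherins of the epidermis: the Fat genes Fat1, Fat2, Fat3 and Fat4, their relative Dchs1 (Dachsous), the classical cadherins Cdh1 (E-cadherin) and Cdh3 (P-cadherin), the truncated cadherin Cdh13 (T-cadherin), and the seven-pass cadherins Celsr1 and Celsr2. They were chosen by name, and each was taken from array rows that the platform annotation assigns to exactly 1 gene symbol. Where a gene had several rows (Fat4 and Cdh1), the brightest row, by its mean across arrays, stood for the gene. The mean level therefore chose the row, whereas the difference between genotypes did not. All 10 were found among the 22180 genes with a value, and no filter on low signal was applied, so none was lost. The set was drawn up when the fall of Fat2 in these data was already known, so that fall is described here and is no independent finding about the set.

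Cadherins are membrane proteins whose extracellular repeats bind calcium and hold neighbouring cells together. Classical cadherins anchor to actin through catenins and build the adherens junctions of the epidermis, where basal cells carry both E- and P-cadherin. Fat and Dachsous proteins bind each other across cell borders and are known, mostly from flies, as inputs to tissue polarity and to the growth-restraining Hippo pathway, while Celsr proteins belong to the core planar polarity pathway that aligns hair follicles in mouse skin.

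RNA was measured on MoGene 2.0 whole-transcript arrays in primary cultures of keratinocytes, which form the epidermis. The mice were C57BL/6J and 1 week old. The WT cells carried floxed Glut1 alleles (Glut1 fl/fl) and no Cre. The Glut1-deficient cells carried the same floxed alleles and K14 Cre, a recombinase driven by the keratin 14 promoter that is active in basal keratinocytes and other keratin 14-positive epithelia, so both groups share the floxed background and only one carries Cre. Each genotype had 4 mice, and each array holds RNA pooled from 2 plates, so there are 2 arrays of WT and 2 of Glut1-deficient cells. The p-values thus measure the spread between pools, and no label says whether the genotypes were handled on the same days. All cells grew in a medium with 0.05 mM calcium chloride, a low-calcium condition, on collagen-coated plates, and more cells were lysed for WT than for Glut1-deficient samples. Values are log2 signals, 1 per array row. Rows of different genes have different probes, so values are read only as changes between arrays, also where a pair of genes is set against each other within an array. Percentiles of gene means say only how bright a row is on these arrays and do not rank the abundance of different transcripts.

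The array medians lay between 4.07 and 4.11, and replicate arrays correlated at r = 0.9962 (WT) and r = 0.9951 (Glut1-deficient) across genes. The brighter row of Slc2a1, which encodes Glut1, read 11.13 and 11.05 on the WT arrays and 11.01 and 11.01 on the arrays labelled Glut1-deficient, and it did not pass the test (limma adjusted p = 0.675). A dimmer Slc2a1 row read 5.18 and 5.09 on WT and 4.80 and 4.44 on Glut1-deficient arrays, a difference of -0.52 on the log2 scale, which missed the threshold over all rows (limma adjusted p = 0.247). The floxed exons and the probe positions are not known here, so these rows do not check the labels. Of 13 keratinocyte markers, 11 lay above the median gene in mean signal. Krt14, a basal keratin, read 12.56 and 12.54 on WT and 12.15 and 12.21 on Glut1-deficient arrays, whereas Krt1 (percentile 31.6 of gene means) and Krt15 (19.5) were dim. Of these markers, 0 passed the test in limma (2 higher and 6 lower at unadjusted p under 0.05, beside 11% and 11.2% of all genes).

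Fat2 was the only one of the 10 genes to pass the test, and it was lower on the arrays labelled Glut1-deficient. Differences were fitted with limma as Glut1-deficient minus WT. The p-values were adjusted over all 22180 genes by the Benjamini-Hochberg method, and a gene is said to have risen or fallen when its adjusted p was under 0.05. Over all genes 2.84% passed, 1.79% as rises and 1.05% as falls. Of the 10 cadherins, 1 fell and 0 rose. At unadjusted p under 0.05 there were 4 of 10 (1 higher, 3 lower), beside 22.2% of all genes. The 2 genotypes did not overlap for 8 of 10, beside 53.2% of all genes: the Glut1-deficient arrays were both higher for 3 (25.5% of all genes) and both lower for 5 (27.7%). The median log2 fold change was -0.09 over the 10 and -0.01 over all genes. In RNA from whole cultures, fewer cells of a type and less RNA per cell cannot be told apart.

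**Figure D1:**
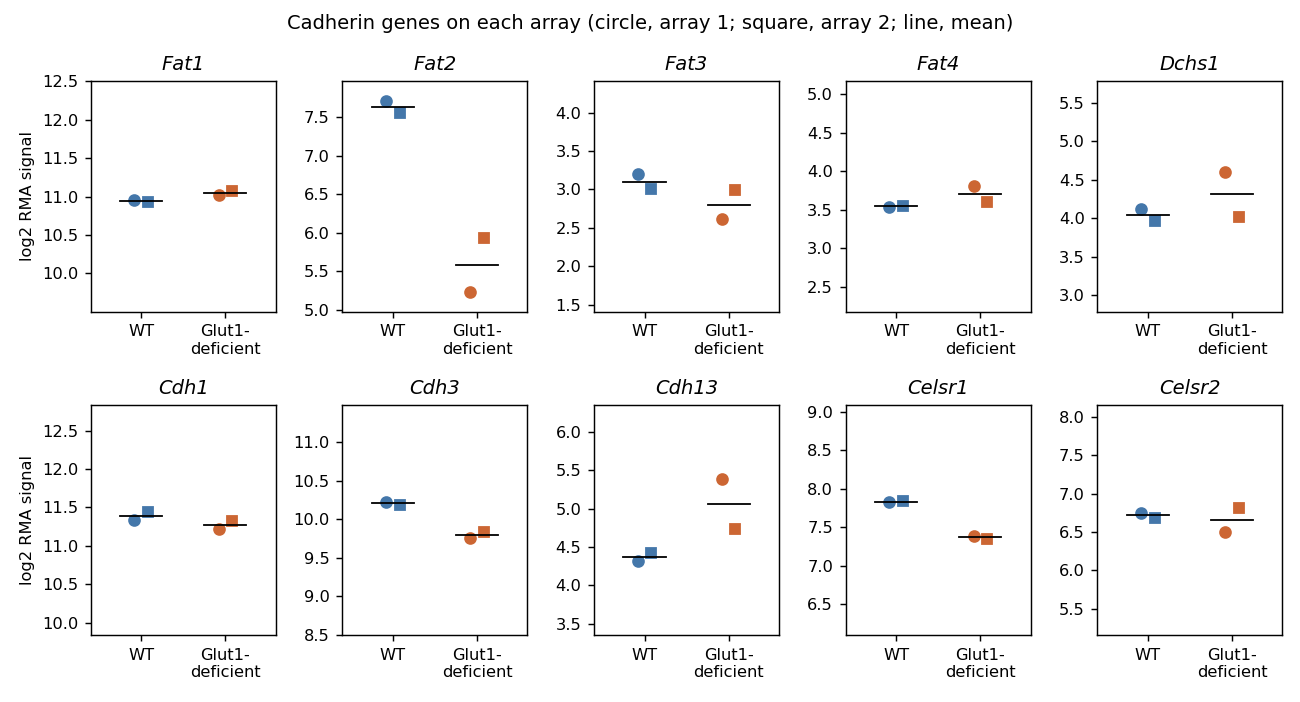
Log2 RMA signal (vertical axis, the same span in every panel) of the 10 cadherin genes on the 2 WT arrays (blue) and the 2 Glut1-deficient arrays (orange); circles are array 1, squares are array 2 and lines are group means. Fat2 drops from about 7.64 to 5.58, while Cdh3 (-0.42) and Celsr1 (-0.46) shift by less with tight pairs and Cdh13 and Dchs1 spread widely between the Glut1-deficient arrays.

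Fat2 encodes a giant atypical cadherin that is expressed in stratified epithelia and is known in migrating epithelial sheets. It read 7.72 and 7.56 on the WT arrays and 5.23 and 5.94 on the Glut1-deficient arrays. The groups did not overlap, and array 1 of the Glut1-deficient pair was the lowest. The means were 7.64 ± 0.11 and 5.58 ± 0.50 (SD, n = 2 each), which is a 4.16-fold lower signal, or a log2 fold change of -2.06 (SE 0.25, 95% interval -2.69 to -1.42; limma adjusted p = 0.0318). Only 7 of the 22180 genes, Fat2 included, had a log2 fold change this low or lower. The call rests on all 4 arrays and on the spread borrowed across genes: adjusted p was 0.0685 to 0.264 with any 1 array left out (limma), 0.113 when all 41345 rows were tested and 0.273 with an unmoderated statistic. The size varied less, from -2.41 without Glut1-deficient array 2 to -1.70 without array 1.

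The other Fat genes did not follow it past the test. Fat1, a Fat cadherin that organises actin at cell borders and is widely expressed in epithelia, read 10.96 and 10.93 on WT and 11.02 and 11.07 on Glut1-deficient arrays. The Glut1-deficient values were both slightly higher, with a log2 fold change of 0.10 (SE 0.08, 95% interval -0.11 to 0.32; limma adjusted p = 0.537). The interval lies above that of Fat2 throughout. Set against each other within each array, a comparison added after the values were seen, Fat2 minus Fat1 was -3.24 and -3.37 on WT and -5.80 and -5.14 on Glut1-deficient arrays. That difference thus shifted by -2.16, which mostly restates the fall of Fat2. The groups did not overlap. The exact permutation p was 0.333, the smallest two-sided value this design can give, so the permutation decides nothing.

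Fat3, best known from neurons, read 3.20 and 3.00 on WT and 2.62 and 2.99 on Glut1-deficient arrays. Its row was dim, at percentile 18.8 of gene means, and the highest Glut1-deficient value nearly touched the lowest WT value. The log2 fold change was -0.30 (95% interval -0.71 to 0.10; limma adjusted p = 0.342). Fat4, the closest mammalian counterpart of the fly fat gene, read 3.54 and 3.55 on WT and 3.81 and 3.60 on Glut1-deficient arrays. The log2 fold change of its brighter row was 0.16 (95% interval -0.11 to 0.43; limma adjusted p = 0.451), and the dimmer Fat4 row had a mean of 2.86 in both groups. Dchs1, the ligand of Fat4, read 4.12 and 3.96 on WT and 4.61 and 4.02 on Glut1-deficient arrays. These groups overlapped, since only array 1 stood above WT, and the log2 fold change was 0.27 (95% interval -0.28 to 0.81; limma adjusted p = 0.523). Without that array it was -0.027. Fat3, Fat4 and Dchs1 all lay below the median gene in mean signal, and no detection calls were used here, so how far these rows stand above background is not known.

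Neither classical cadherin passed the test, and both were lower on the Glut1-deficient arrays, Cdh3 by more than Cdh1. Cdh1, the main adhesion molecule of epithelial adherens junctions, read 11.34 and 11.45 on WT and 11.22 and 11.33 on Glut1-deficient arrays. The groups nearly touched, and the log2 fold change was -0.12 (SE 0.10, 95% interval -0.36 to 0.13; limma adjusted p = 0.539). A dimmer Cdh1 row gave -0.17, in the same direction. Cdh3, the classical cadherin of basal and hair follicle keratinocytes, read 10.23 and 10.19 on WT and 9.75 and 9.83 on Glut1-deficient arrays. Both Glut1-deficient values were lower, by a gap several times the distance within either pair, and the signal was 1.34-fold lower (log2 fold change -0.42, SE 0.09, 95% interval -0.64 to -0.19). Its unadjusted p was 0.00525, but it missed the threshold over all genes (limma adjusted p = 0.0824). It passed when limma's prior variance followed signal level (limma adjusted p = 0.00419), a setting in which 2671 of 22180 genes passed. It also passed among genes above the median level (limma adjusted p = 0.0222), where 2327 of 11090 genes did. Cdh3 and Cdh1 are neighbours among protein-coding genes of the mouse genome (RefSeq, GRCm38.p6). Within arrays, a comparison also added after the values were seen, Cdh3 minus Cdh1 was -1.11 and -1.26 on WT and -1.47 and -1.49 on Glut1-deficient arrays, a shift of -0.30 (exact permutation p = 0.333, the smallest possible).

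Of the seven-pass cadherins, Celsr1 was lower on both Glut1-deficient arrays and Celsr2 on one. Celsr1, the family member required for hair follicle alignment in mouse skin, read 7.82 and 7.84 on WT and 7.38 and 7.35 on Glut1-deficient arrays. The Glut1-deficient pair was the tightest among the members and lay below both WT values. The signal was 1.38-fold lower (log2 fold change -0.46, SE 0.08, 95% interval -0.68 to -0.25; unadjusted p = 0.0027, limma adjusted p = 0.063). As for Cdh3, the call depended on the variance model: Celsr1 passed with an intensity trend (limma adjusted p = 0.0087) and among genes above the median level (0.0153). In these settings 2671 of 22180 and 2327 of 11090 genes passed. Celsr2, its close relative, read 6.75 and 6.68 on WT and 6.50 and 6.82 on Glut1-deficient arrays. The Glut1-deficient values lay on either side of both WT values, with a log2 fold change of -0.06 (95% interval -0.40 to 0.28; limma adjusted p = 0.832) that became 0.10 without array 1. Celsr1 minus Celsr2 was 1.07 and 1.15 on WT and 0.89 and 0.54 on Glut1-deficient arrays, a shift of -0.40 (exact permutation p = 0.333, the smallest possible), again examined only after the values were seen.

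Cdh13 had the highest positive log2 fold change of the 10. It encodes T-cadherin, which lacks a cytoplasmic tail and is held in the membrane by a lipid anchor, and which is known from endothelial cells as well as basal keratinocytes. It read 4.32 and 4.42 on WT and 5.38 and 4.73 on Glut1-deficient arrays. Both Glut1-deficient values were higher, but they lay further from each other than array 2 lay from WT. The log2 fold change was 0.68 (SE 0.22, 95% interval 0.11 to 1.26), with unadjusted p = 0.0287 and a limma adjusted p of 0.173. It ran from 0.36 without array 1 to 1.01 without array 2, and at percentile 49.5 of gene means the row was not bright.

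**Figure D2:**
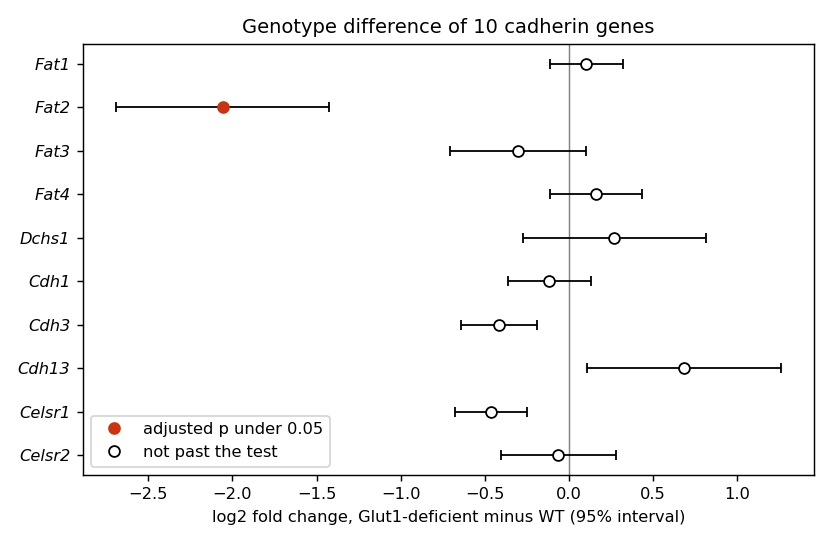
Log2 fold change (horizontal axis, Glut1-deficient minus WT) of each cadherin gene with its 95% interval from limma; the filled point passed the test over all genes and open points did not. Fat2 stands at -2.06, the intervals of Cdh3 (-0.64 to -0.19), Celsr1 (-0.68 to -0.25) and Cdh13 (0.11 to 1.26) leave out 0 without passing over all genes, and those of the other 6 genes include it.

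The Glut1-deficient arrays differed from each other, and this touches several cadherins. The Glut1-deficient pair lay further apart than the WT pair for 9 of 10 members (54.0% of all genes), with Cdh1 the exception. Array 1 lay further from the WT mean than array 2 for 8 of 10 members (57.1% of all genes and 75.6% of the genes that passed), the exceptions being Fat1 and Celsr1. Relative to the WT mean, Cdh13 was at 1.01 on array 1 and 0.36 on array 2, Dchs1 at 0.56 and -0.03, and Fat2 at -2.41 and -1.70. Markers of other cell types also differed between the 2 arrays. All 17 measured fibroblast markers had positive log2 fold changes, and 1 of them, Twist2, passed in limma. At unadjusted p under 0.05, 12 were higher and 0 lower, beside 11% and 11.2% of all genes. For 15 of the 17, both Glut1-deficient arrays lay above both WT arrays, beside 25.5% of all genes. The median of the 17 relative to WT was 1.18 on array 1 and 0.68 on array 2. Their summed signal on the log2 scale was 11.01 to 11.10 on WT and 11.61 to 12.20 on Glut1-deficient arrays. The rows with the highest means were Fn1 (0.28), Vim (1.70) and Pdgfra (2.15, all log2 fold changes that did not pass). Of the 17, 13 lay at or above the median gene in mean signal. Lum, a defining dermal proteoglycan, had the lowest mean of the 17, at percentile 19.4 of gene means. It read 2.47 and 2.40 on WT and 4.03 and 3.01 on Glut1-deficient arrays. Both Glut1-deficient values were higher, by 1.08 on the log2 scale between group means, without passing (limma adjusted p = 0.158).

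For melanocyte markers, 11 of 12 had positive log2 fold changes and 5 rose, beside 1.79% of all genes. Among those that rose were Tyrp1, Dct and Pmel (log2 fold changes 1.31, 1.77 and 1.69). The summed signal of the 12 was 8.73 to 9.02 on WT, 10.02 on Glut1-deficient array 1 and 10.12 on array 2. Their median relative to WT ran the other way, at 0.43 on array 1 and 0.31 on array 2. Among 12 endothelial markers the receptor gene Kdr rose by 2.38 on the log2 scale. Flt1, the row with the highest mean, was at 0.65 and Egfl7 at -0.42 without passing, the endothelial cadherin Cdh5 was at -0.10 and at percentile 41.2 of gene means, and 0 others passed (limma; 3 higher and 2 lower at unadjusted p under 0.05, Kdr included). Their summed signal was 8.64 to 8.82 on WT and 9.41 to 9.48 on Glut1-deficient arrays, while their median relative to WT was 0.07 on array 1 and 0.04 on array 2. Neither 16 immune markers (median log2 fold change -0.08; summed signal 9.15 to 9.19 on WT and 9.04 to 9.07 on Glut1-deficient arrays) nor 10 Merkel cell and neural markers (0.01; 9.37 to 9.67 and 9.36 to 9.41) held a gene that passed in limma. At unadjusted p under 0.05 these lists had 5 and 2 genes, beside 22.2% of all genes. The part of other cell types in the values of Cdh13, Dchs1, Fat4 and Fat2 was not tested.

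**Figure D3:**
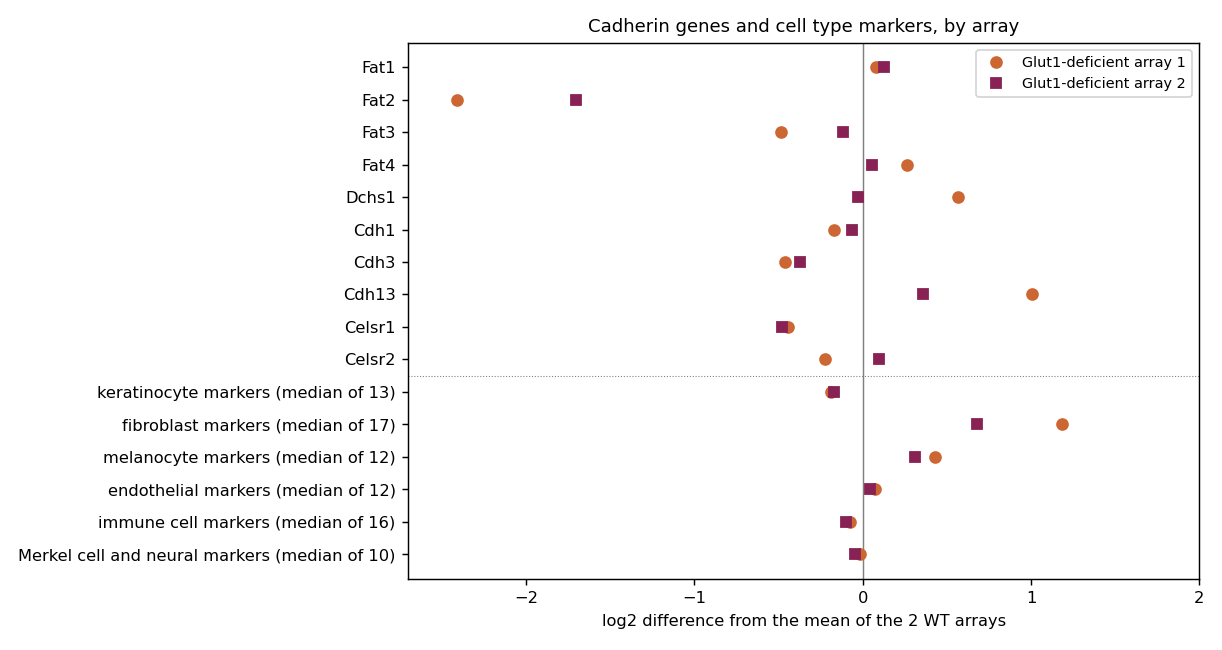
Log2 difference of each Glut1-deficient array from the mean of the 2 WT arrays (horizontal axis) for the 10 cadherin genes and, below the dotted line, the median of each cell type marker list; circles are array 1 and squares array 2. Cdh13 (1.01 and 0.36), Dchs1 (0.56 and -0.03) and the fibroblast markers (1.18 and 0.68) lie further right on array 1, and Fat2 lies further left there.

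Genes that work with the cadherins were counted in 8 lists, which together held 195 measured genes. Of these, 6 rose and 5 fell, beside 1.79% and 1.05% of all genes, or 2.84% passing in either direction. In the list of Fat and Dachsous partners, 1 of 18 fell, 0 rose and 17 did not pass, with a median of 0.02. The gene that fell was Enah, an actin-elongating protein of the Ena/VASP family that binds the Fat1 tail. It read 9.79 and 9.63 on WT and 8.95 and 9.09 on Glut1-deficient arrays (log2 fold change -0.69, SE 0.11; limma adjusted p = 0.0498). Both Glut1-deficient values were lower, and the call lay at the threshold. Wasf1, a subunit of the WAVE actin-branching complex, was at -0.55, Rere, a mammalian atrophin, at 0.35 and Lix1l at 0.43, and none of these passed.

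Adherens junction partners were more often lower than higher. Of 34 measured genes, 2 fell (beside 1.05% of all genes), 0 rose and 32 did not pass. Negative log2 fold changes were found for 22 (64.7%, beside 51.6% of all genes), and the median was -0.11. Plekha7, which links the catenin complex to microtubules, read 7.66 and 7.52 on WT and 6.78 and 6.79 on Glut1-deficient arrays. Its log2 fold change of -0.81 (SE 0.09; limma adjusted p = 0.0315) came with no overlap and tight pairs. Nectin3, an immunoglobulin-like adhesion receptor of the same junctions, read 6.83 and 6.71 on WT and 5.76 and 6.03 on Glut1-deficient arrays. It fell by 0.87 on the log2 scale (SE 0.12; limma adjusted p = 0.0433). Nectin1 was at -0.58 and the actin-binding gene Ablim1 at 0.58 without passing. The catenins, which bind cadherin tails directly and are named here after their values were seen, did not pass: Ctnnd1 (p120-catenin) was at -0.43, Ctnnb1 (beta-catenin) at -0.12, Jup (plakoglobin) at -0.11 and Ctnna1 (alpha-catenin) at -0.02.

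None of the 26 planar polarity genes beside Celsr1 and Celsr2 passed in limma, and their median was 0.07. At unadjusted p under 0.05, 6 were higher and 3 lower, beside 11% and 11.2% of all genes. Vangl1, a core polarity membrane protein, read 7.89 and 7.88 on WT and 7.31 and 7.47 on Glut1-deficient arrays, a difference of -0.49 on the log2 scale (limma adjusted p = 0.0722), close in size to that of Celsr1. The secreted ligand Wnt11 was at -0.51, Wnt5a at 0.86 and the cilium assembly gene Fuz at 0.34. The fibroblast markers had a median log2 fold change of 0.93 on the same arrays, and the part of other cell types in the value of Wnt5a was not tested.

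Hippo pathway components, which Fat cadherins are known to feed into, included 3 rises of 34, beside 1.79% of all genes. There were 0 falls and 31 genes that did not pass, with a median of -0.02. Rassf6, a scaffold gene of the RASSF family, read 5.60 and 5.65 on WT and 6.95 and 6.78 on Glut1-deficient arrays and rose 2.37-fold (limma adjusted p = 0.0175). Tead4, a DNA-binding partner of YAP, read 7.46 and 7.52 on WT and 8.19 and 8.20 on Glut1-deficient arrays and rose 1.63-fold (limma adjusted p = 0.0318). Wwtr1, which encodes the YAP paralogue TAZ, read 8.06 and 8.09 on WT and 8.80 and 8.65 on Glut1-deficient arrays and rose 1.57-fold (limma adjusted p = 0.0445). All 3 had pairs that did not overlap, beside 53.2% of all genes, and this is no support apart from the call. Amotl2, an inhibitor of YAP, was at -0.47 and Yap1 itself, named after its value was seen, at -0.09.

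Of 26 genes listed as YAP and TEAD targets, 2 fell (beside 1.05% of all genes), 0 rose and 24 did not pass. Negative log2 fold changes were found for 18 (69.2%, beside 51.6% of all genes), and the median was -0.15. Thbs1, a matrix glycoprotein, read 12.07 and 12.01 on WT and 9.85 and 10.59 on Glut1-deficient arrays. Igfbp3, which binds insulin-like growth factors, read 10.57 and 10.51 on WT and 8.06 and 8.98 on Glut1-deficient arrays. Their log2 fold changes were -1.82 (SE 0.25; limma adjusted p = 0.0401) and -2.02 (SE 0.30; limma adjusted p = 0.0473). Array 1 was the lower one for both, as it was for Fat2. Among all genes that passed, array 1 lay further from the WT mean for 75.6%. Amotl2 (-0.47) also belongs to this list, and Ccn1 was at -0.45 without passing. Both genes that fell were already known from the largest changes in these data.

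Among 17 other classical cadherins, 1 rose (beside 1.79% of all genes), 0 fell (beside 1.05%) and 16 did not pass, with a median of -0.04. Cdh11, the mesenchymal cadherin of fibroblasts, read 6.35 and 5.93 on WT and 7.98 and 7.51 on Glut1-deficient arrays and rose 3.04-fold (limma adjusted p = 0.0393). Cdh6 read 6.28 and 5.80 on WT and 7.75 and 7.25 on Glut1-deficient arrays, a log2 fold change of 1.46 that missed the threshold (limma adjusted p = 0.0533). Cdh2, or N-cadherin, was at 0.72 (limma adjusted p = 0.0872) and Cdh4 at 0.37. Over the 17, the Glut1-deficient arrays were both higher for 5 and both lower for 3, beside 25.5% and 27.7% of all genes. The 4 genes named, which have the smallest p of the list, had pairs that did not overlap. Array 1 was the higher of the Glut1-deficient pair for each, as it was for Cdh13 and for the fibroblast marker median (1.18 and 0.68). Array 1 lay further from the WT mean for 57.1% of all genes. On WT, array 1 was also the higher one for Cdh11, Cdh6 and Cdh2, but not for Cdh4 or Cdh13. The part of other cell types in these values was not tested.

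None of 24 other atypical cadherins and protocadherins passed in limma, and their median was -0.04. At unadjusted p under 0.05, 1 was higher and 4 were lower, beside 11% and 11.2% of all genes. Ret, a receptor kinase with cadherin repeats, was at 0.63, Pcdh1 at -0.72, Clstn1 at -0.32 and Pcdh7 at -0.34. The list of epithelial-mesenchymal transition factors, several of which regulate Cdh1 in many epithelia, also holds the marker genes Vim, Fn1 and Epcam. In it 2 of 21 rose (beside 1.79% of all genes), 0 fell (beside 1.05%) and 19 did not pass, with a median of 0.19. Vim and Fn1 are also counted among the fibroblast markers. Twist2, a dermal fibroblast factor that is also one of the fibroblast markers, read 2.78 and 3.05 on WT and 5.43 and 5.20 on Glut1-deficient arrays and rose 5.28-fold (limma adjusted p = 0.0129). Ovol1, an epithelial factor that opposes the transition and acts in keratinocyte differentiation, read 5.87 and 5.74 on WT and 6.72 and 6.90 on Glut1-deficient arrays and rose 2.01-fold (limma adjusted p = 0.0272). In their known roles these 2 genes are opposed. Twist1 was at 0.64 and Snai3 at -0.84 without passing, beside the small difference of Cdh1 itself (-0.12).

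**Figure D4:**
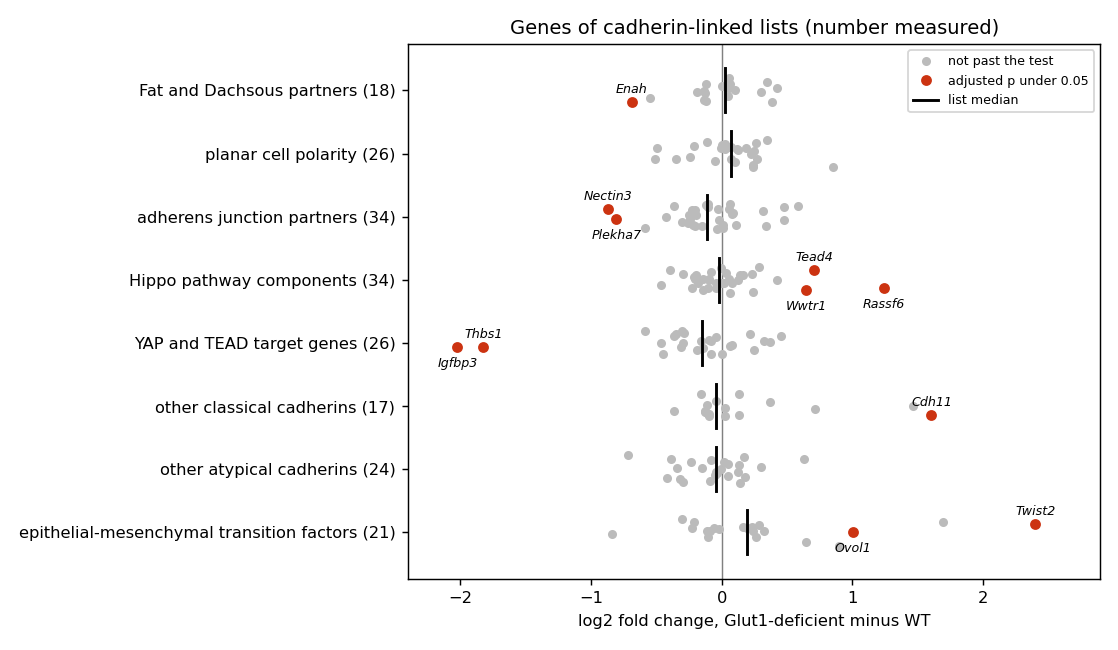
Log2 fold change (horizontal axis, Glut1-deficient minus WT) of each gene in the 8 cadherin-linked lists, with the number measured in brackets; red points passed the test over all genes, grey points did not and black bars are list medians. The medians lie between -0.15 and 0.19, and the named points are the genes that passed in each list, 11 over all lists.

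The genes whose pattern over the 4 arrays was most like that of Fat2 were found by the root mean square difference between gene-centred log2 values. The nearest 5 were Mill1 (0.0794), Igfbp3 (0.0836), Slitrk6 (0.0967), Nuak1 (0.106) and Tgfbi (0.116). Mill1 encodes an MHC class I-like protein, Slitrk6 a leucine-rich repeat membrane protein, Nuak1 an AMPK-related kinase and Tgfbi an extracellular matrix protein. All 5 fell, with log2 fold changes from -2.18 (Slitrk6) to -1.83 (Tgfbi), and each was lower on Glut1-deficient array 1 than on array 2. The direction, size and array order of these changes follow from the choice by likeness to Fat2 and are no separate result. Mill1, for example, read 8.09 and 7.76 on WT and 5.45 and 6.31 on Glut1-deficient arrays. With 4 arrays such a match describes these values only.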

How the data were processed

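RNA of cultured mouse keratinocytes was hybridised to MoGene 2.0 arrays, 2 per genotype, each a pool of 2 plates. The authors deposited log2 values from RMA in Affymetrix Expression Console, according to the submitters' processing notes. Versions, settings and genome build: not given in the sources used here. RMA forces a common distribution on the arrays, so changes are relative to other genes. Of 41345 rows, 23521 have 1 gene symbol, 1814 several and 16010 none. Symbols were checked by gene identifier (23328 matched, 0 changed), and the brightest row stood for each of 1082 genes with several. limma 3.58.1 under R 4.3.3 fitted the 22180 genes (lmFit, eBayes, no trend, 2 residual degrees of freedom and a prior worth 2.95), and the fit was tested on simulated data. Percentiles refer to gene means over the 4 arrays. Precision is limited by how few arrays there are, and no detection calls were used.

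The members and all lists were chosen with earlier results of these data known. The text names all members, up to 4 genes per list with the smallest p, the 5 nearest patterns to a member that passed, and up to 3 markers per cell type with the highest mean; other names are marked as chosen afterwards or are a list's defining genes. No set test was run. Alternatives were other variance models, normalizations, row choices, a filter on dim genes, another threshold, an unmoderated statistic, a replicate block and leaving out each array. RefSeq promoter windows cover 5 of 10 members, and 3 of these lie over 1000 bases inside the annotated gene, so no promoter is described. Figures were drawn with matplotlib 3.10.9.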

Additional observations from a re-analysis of the deposited data

How the results depend on the processing

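Over all genes, 630 passed in the fit as reported, with 1 of the 10 cadherins and 11 of the 195 list genes. With an intensity trend the counts were 2671, 3 and 50, and with robust estimation as well 2729, 3 and 50. Among the 11090 genes above the median level, which hold 6 of the cadherins and 151 list genes, they were 2327, 3 and 45. At an adjusted p under 0.1 they were 1855, 3 and 30. In these settings the cadherins were Fat2, Cdh3 and Celsr1. With all rows as separate tests all 3 counts were 0 in limma (6694 rows and 4 cadherins at unadjusted p under 0.05), and with the unmoderated statistic all were 0 (3646 genes and 3 cadherins at unadjusted p under 0.05). With any 1 array left out, which leaves 1 sample in a group that is assumed to vary like the other, the counts ranged from 0 to 0 in limma (2948 to 4627 genes and 3 to 6 cadherins at unadjusted p under 0.05). The other settings (median centring, quantile, cyclic loess, mean of a gene's rows) kept each count within 1.5 times.

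With the replicate number as a block, 37 genes, 0 cadherins and 1 list gene passed (limma; 4335 genes and 4 cadherins at unadjusted p under 0.05), and Fat2 had an adjusted p of 0.0735. Same-numbered arrays did not deviate together over all genes (r = -0.0251 over 22180 genes). Whether they were handled together is not known, since a correlation over all genes can miss a difference limited to some genes.

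The log2 fold change of Fat2 stayed between -2.41 and -1.70 over 15 alternatives, and 7 of them ended its call. That of Cdh3 stayed between -0.46 and -0.37 and that of Celsr1 between -0.48 and -0.45, and 4 alternatives each made a call. Without Glut1-deficient replicate 1, Dchs1 turned to -0.027 and Celsr2 to 0.098, and both were uncalled throughout. With 1 array left out, Dchs1 ranged from -0.027 to 0.56 and Celsr2 from -0.22 to 0.098. No other cadherin changed sign. The dimmer rows of Fat4 and Cdh1 were added as an alternative chosen after seeing the data. Signal over background could not be assessed, which limits Fat3, Fat4, Dchs1 and Cdh13 most, since all 4 lie below the median gene.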
